A study of Mus musculus with 6 samples.

Results

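The respiratory chain is built from genes of both genomes of the cell, and 58 of its genes were followed here: 13 transcribed from the mitochondrial genome and 45 from the nucleus. They were taken by name from a fixed list, and all 58 had an identifier among the 37620 in each count table. RNA sequencing was done on the hippocampus of C57BL/6 mice aged 13 weeks, 3 labelled wildtype and 3 labelled miR17-92 knockout, with every mouse from a different litter. The knockout concerns a cluster of microRNAs transcribed together from Mir17hg. The sources used here do not give the deleted part, the cells in which it was deleted or any Cre driver. The question asked was whether transcripts of the mitochondrial genome and nuclear transcripts of the same complexes differed between genotypes, and whether they did so alike.

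Complex I (NADH dehydrogenase), complex III (cytochrome bc1), complex IV (cytochrome c oxidase) and complex V (ATP synthase) each contain subunits of both origins, whereas complex II (succinate dehydrogenase) is entirely nuclear. Complexes I to IV pass electrons from NADH and succinate to oxygen and complexes I, III and IV pump protons, whose return through complex V drives ATP synthesis. The mitochondrial genome is copied and transcribed inside the organelle as long precursors that are then processed into single messengers, ribosomal RNAs and transfer RNAs. Nuclear subunits are transcribed singly and imported as proteins. Neurons depend on this pathway for the ion pumping that firing requires.

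Reads assigned to genes numbered 26439693 to 57246827 per library. Mir17hg held 36 to 47 reads in wildtype and 30 to 37 in knockout libraries, too few to check the genotype. Genes of hippocampal neurons, chosen after their values were seen, were present in all 6 libraries, Prox1 (dentate granule cells) at 167 to 188 CPM and Neurod6 (pyramidal neurons) at 215 to 229 CPM. Calb1, a calcium buffer of granule and pyramidal cells, was at 118 to 137 CPM in wildtype and 167 to 179.7 CPM in knockout, a log2 fold of 0.46 (edgeR adjusted p = 0.0624, DESeq2 adjusted p = 3.32e-09). Wfs1, a marker of pyramidal neurons, was at 170 to 236 and 159 to 196 CPM. The part of these differences in those of the members was not tested. CPM are reads per 1000000 reads assigned to genes. These are bulk samples, so fewer cells of a type and less RNA per cell cannot be told apart.

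The mitochondrially encoded members fell into 2 classes of abundance before any comparison of genotypes. Those above 100 CPM in every library were 7 genes: mt-Nd1, mt-Nd2, mt-Nd4, mt-Nd5 and mt-Nd6 of complex I, mt-Cytb of complex III and mt-Co1 of complex IV. They held at least 23075 reads in each library. The other 6, mt-Nd3, mt-Nd4l, mt-Co2, mt-Co3, mt-Atp6 and mt-Atp8, held at most 78 reads in any library. mt-Co2 and mt-Co3 encode core subunits of complex IV, and mt-Atp6 and mt-Atp8 the membrane part of complex V. Complex V was therefore represented by these few reads only. Transfer RNA genes aside, the 6 genes lie next to each other on the mitochondrial genome, between mt-Co1 and mt-Nd4.

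**Figure D1:**
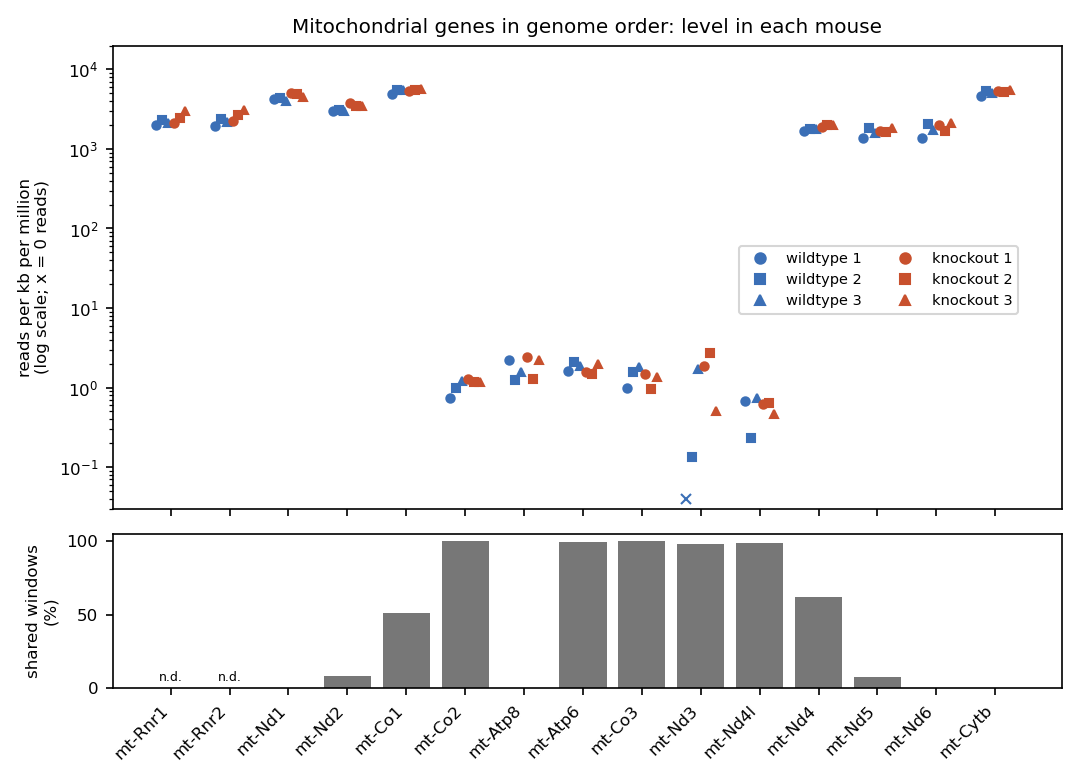
The upper panel plots reads per kilobase and per 1000000 gene reads (log scale) of the mitochondrial ribosomal RNAs and protein genes in genome order, with 1 symbol per mouse (blue wildtype, red knockout; a cross marks 0 reads). The lower panel gives the percentage of 50-base windows of each gene that occur in an annotated nuclear gene (n.d., not determined for the ribosomal RNAs): the 6 genes from mt-Co2 to mt-Nd4l sit at least 2 orders of magnitude below their neighbours, and 5 of them share nearly all windows.

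The low class coincided with a stretch of mitochondrial sequence that is also present in the nuclear genome. In the GENCODE M21 annotation of GRCm38, 7 pseudogenes on chromosome 1 lie on the minus strand between 24611535 and 24616197 and repeat mitochondrial genes in their order. Gm28661 matched mt-Co2 without a mismatch over 681 bases, Gm10925 matched mt-Atp6 over 678, Gm28437 matched mt-Co3 over 783, and Gm10222 matched mt-Nd4l over 294. Gm28438 differed from mt-Nd3 at a single base of 345, T3C, where positions count from 1 at the first base of the mitochondrial gene. Gm28439 matched the first 876 of 1378 bases of mt-Nd4, and Gm29216 the last 492 of 1545 bases of mt-Co1 with 6 mismatches. No annotated gene covers the 233 bases between Gm10925 and Gm28661, the copies of mt-Atp6 and mt-Co2, and mt-Atp8 (204 bases), which lies between those genes, shared no window. On chromosome 2, Gm13341 is a second copy of mt-Co2 with 16 mismatches over 672 bases. The first 30 bases of mt-Co2 and of both copies are shown because they carry the contrast between an identical and a diverged copy, with capitals at the base where Gm13341 differs (C25T).
mt-Co2 (chrM:7013-7042, plus strand): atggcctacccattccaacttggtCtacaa
Gm28661 (chr1:24615536-24615565, minus strand): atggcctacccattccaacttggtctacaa
Gm13341 (chr2:22587933-22587962, minus strand): atggcctacccattccaacttggtTtacaa

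The first 30 bases of mt-Nd3 and of Gm28438 follow, because they hold the only difference between the gene and its copy, in capitals.
mt-Nd3 (chrM:9459-9488, plus strand): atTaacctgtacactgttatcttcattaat
Gm28438 (chr1:24613090-24613119, minus strand): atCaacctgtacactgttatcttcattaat

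Read in 50-base windows, 97.99% of mt-Nd3, 98.8% of mt-Nd4l, 99.5% of mt-Atp6, 99.9% of mt-Co3 and 100% of mt-Co2 occurred letter for letter in a nuclear gene. The share was 51.1% for mt-Co1 and 62.2% for mt-Nd4, and at most 8.19% for mt-Nd1, mt-Nd2, mt-Nd5, mt-Nd6 and mt-Cytb. Of the 14 nuclear pseudogenes with such windows, 6 had an identifier in the tables, and none of them held more than 250 reads in a library. Reads placed at several sites form a closing row of each table and count for no gene. Whether reads of the low class lie there was not tested. Values of the 5 genes with nearly all windows shared, and to a lesser degree of mt-Co1 and mt-Nd4, are therefore uncertain as levels of the transcripts. mt-Atp8 was as low and shared no 50-base window with an annotated nuclear gene, although its last 43 bases are also in mt-Atp6 and match Gm10925. Only annotated genes were searched, and none covers the 233 bases between the copies of mt-Atp6 and mt-Co2. The search could therefore not decide whether mt-Atp8 has a copy there.

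Within the abundant class levels per length differed about 3-fold. Averaged over the 6 mice, mt-Co1 stood at 5406 reads per kilobase and 1000000 gene reads, mt-Cytb at 5194, mt-Nd1 at 4546, mt-Nd2 at 3293, mt-Nd4 at 1851, mt-Nd6 at 1817 and mt-Nd5 at 1662. The most abundant nuclear members per length were Cox4i1 at 328, Cox6a1 at 262 and Ndufa4 at 216, all parts of complex IV. Exon lengths came from GENCODE M21, which may differ from the annotation that was counted. Differences of a few percent between neighbours in these orders are not resolved by it. With 51.1% and 62.2% of windows shared, the levels of mt-Co1 and mt-Nd4 are also uncertain. The same holds for their places in the order and for the spread within the class.

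As a set, the mitochondrially encoded members took a larger share of reads in knockout and the nuclear members did not. The 13 mitochondrial members summed to 25387, 28820 and 27547 CPM in wildtype replicates 1, 2 and 3, and to 29993, 29399 and 30400 CPM in knockout replicates 1, 2 and 3. The 6 members of the low class added only 3.02 to 4.63 CPM per library, so these sums describe the 7 abundant members. Every knockout library lay above every wildtype library, at 29930 ± 503 against 27251 ± 1736 CPM (SD, n = 3), a ratio of means of 1.10. The 45 nuclear members summed to 3467, 3531 and 3354 CPM in wildtype and to 3428, 3388 and 3368 CPM in knockout, which overlapped, with a ratio of means of 0.984. Sums over members were not tested.

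Reads of the mitochondrial members over reads of the nuclear members, a ratio that does not depend on library scaling, gave the same order. It was 7.32, 8.16 and 8.21 in wildtype replicates 1, 2 and 3 and 8.75, 8.68 and 9.03 in knockout replicates 1, 2 and 3. Means were 7.90 ± 0.50 and 8.82 ± 0.18 (SD, n = 3). Restricted to the mitochondrial members with few or no shared windows (mt-Co1, mt-Nd4 and the low class except mt-Atp8 left out) it was 4.49, 5.08 and 4.96 against 5.56, 5.36 and 5.57, again without overlap. Wildtype replicate 1 was the lowest library, and without it the knockout to wildtype quotient went from 1.12 to 1.08. Among the 3 libraries with more reads (wildtype 1 and 2, knockout 3) the log2 difference was 0.22, and among the 3 with fewer it was 0.09.

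By complex, the ratio was apart between genotypes in complex I and overlapped in complexes III and IV. Only the abundant mitochondrial members entered. These were mt-Nd1, mt-Nd2, mt-Nd4, mt-Nd5 and mt-Nd6 for complex I, but mt-Cytb alone for complex III and mt-Co1 alone for complex IV. In complex I mitochondrial over nuclear reads were 8.44, 9.58 and 9.12 in wildtype and 10.5, 10.5 and 10.6 in knockout, with no overlap. In complex III they were 9.13, 10.1 and 10.2 against 10.5, 10.1 and 11.1, where knockout replicate 2 lay below wildtype replicate 3. In complex IV they were 9.50, 10.6 and 11.7 against 10.9, 11.2 and 11.6, and the genotypes overlapped. Within the 3 shallower libraries the complex IV ratio was lower in knockout, by 0.09 on the log2 scale. The complexes were not tested against each other. GC content was 34.1% to 37.6% for the complex I mitochondrial genes, 39.1% for mt-Cytb and 39.9% for mt-Co1. Its part in the order of the complexes was not tested.

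**Figure D2:**
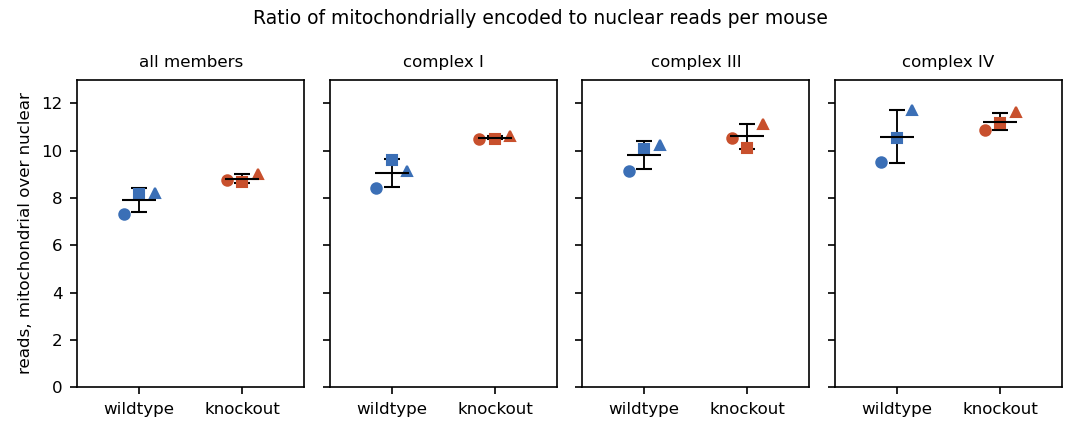
Reads of mitochondrially encoded members over reads of nuclear members in each mouse, for all members and for complexes I, III and IV. By complex only abundant mitochondrial members entered, mt-Cytb alone for complex III and mt-Co1 alone for complex IV. Bars give the mean and SD of 3 mice. The knockout mice lie above the wildtype mice for all members (8.68 to 9.03 against 7.32 to 8.21) and for complex I, and overlap with them for complexes III and IV.

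Gene by gene, no member passed. Of 16432 genes tested with edgeR's quasi-likelihood test, 0 (0%) had an adjusted p under 0.05, and 57 members were among those tested, mt-Nd4l having too few reads. At an unadjusted p under 0.05 there were 3 higher mitochondrial members and 0 lower, beside 5.05% of all genes tested that were higher and 5.58% that were lower in knockout. The same 3 were those whose genotypes did not overlap, which held for 8.29% of all genes in the higher direction. DESeq2 called these 3 as higher, beside 0.587% of the genes for which it gives an adjusted p. With offsets for GC content and length, edgeR gave unadjusted p of 0.155 for mt-Nd1, 0.0673 for mt-Nd2 and 0.333 for mt-Nd4. Because the list was chosen with earlier results known, these counts are descriptions.

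Those 3 genes encode subunits of the membrane arm of complex I. mt-Nd2 measured 3109, 3165 and 3145 CPM in wildtype and 3908, 3559 and 3623 CPM in knockout. All 3 knockout mice were above all wildtype mice, and the wildtype values lay within 2% of each other. The log2 fold was 0.25 (SE 0.04, 95% interval 0.16 to 0.34), with an edgeR adjusted p of 0.118 and a DESeq2 adjusted p of 1.95e-04. mt-Nd1 measured 4012, 4232 and 3874 CPM in wildtype and 4905, 4760 and 4317 CPM in knockout. Knockout replicate 3 was nearest to wildtype replicate 2, and the genotypes did not overlap. Its log2 fold was 0.22 (SE 0.05, 95% interval 0.10 to 0.34), with an adjusted p of 0.286 with edgeR and 0.0271 with DESeq2. mt-Nd4 stood at 2298, 2480 and 2425 CPM in wildtype and at 2616, 2720 and 2766 CPM in knockout. The groups were again apart, by a log2 fold of 0.18 (SE 0.04, 95% interval 0.09 to 0.27), with adjusted p of 0.25 with edgeR and 0.0186 with DESeq2. The log2 difference of mt-Nd1 was 0.08 among the 3 libraries with more reads and 0.33 among the 3 with fewer. In the same order it was 0.22 and 0.26 for mt-Nd2 and 0.22 and 0.15 for mt-Nd4.

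The other 4 abundant members overlapped between genotypes. mt-Nd5, a further proton-pumping subunit of complex I, was at 2508, 3386 and 2876 CPM in wildtype and 3092, 3000 and 3328 CPM in knockout, a log2 fold of 0.11 (SE 0.09). mt-Nd6, the only member transcribed from the opposite strand, was at 720, 1057 and 887 CPM in wildtype and 1026, 873 and 1095 CPM in knockout, a log2 fold of 0.18 (SE 0.13). In both genes wildtype replicate 1 was the lowest of all mice and wildtype replicate 2 was the highest for mt-Nd5 and below knockout replicate 3 only for mt-Nd6. Without wildtype replicate 1 the log2 folds were 0.02 for mt-Nd5 and 0.05 for mt-Nd6, and without wildtype replicate 2 they were 0.23 and 0.32. Without knockout replicate 3 they were 0.07 and 0.11. The sources used here do not give the strand setting of the counting, and reads of mt-Nd6 and of antisense RNA cannot be told apart.

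mt-Cytb, the cytochrome b of complex III, was at 5227, 6098 and 5852 CPM in wildtype and 6113, 5966 and 6392 CPM in knockout, a log2 fold of 0.11 (SE 0.05, edgeR adjusted p = 0.508). mt-Co1, the catalytic subunit of complex IV and the most abundant member, was at 7509, 8398 and 8483 CPM in wildtype and 8328, 8516 and 8876 CPM in knockout, a log2 fold of 0.09 (SE 0.05, edgeR adjusted p = 0.571). Wildtype replicate 1 was the lowest mouse for both. Without it the log2 folds were 0.05 and 0.03.

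**Figure D3:**
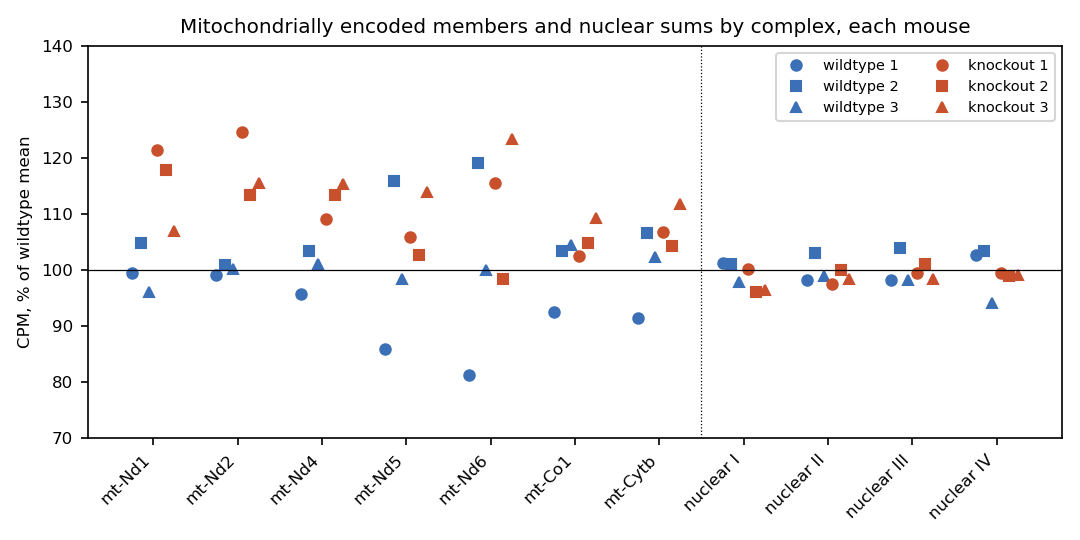
CPM of the 7 abundant mitochondrially encoded members and summed CPM of the nuclear members of complexes I to IV in each mouse, as a percentage of the wildtype mean (line at 100). Knockout mice lie above all wildtype mice for mt-Nd1, mt-Nd2 and mt-Nd4, whereas the nuclear sums of both genotypes overlap in every complex.

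All 7 abundant members had a positive log2 fold, between 0.09 and 0.25 with a median of 0.18, where the median over all genes tested was 0.00, with 8218 positive and 8214 negative. The median over the 12 mitochondrial members tested, which also counts those at few reads, was 0.18, and 0.10 without wildtype replicate 1. For the 45 nuclear members it was -0.01, with 17 positive and 28 negative. Mice of a genotype also differed more in the mitochondrial than in the nuclear members. The median coefficient of variation among wildtype mice was 6.63% over the 7 genes and 3.59% over the 45, beside 6.94% over all genes tested. In knockout mice it was 5.03% and 3.73%, beside 6.48%.

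At few reads the remaining mitochondrial members gave wide intervals. mt-Co2 held 20, 29 and 26 reads in wildtype and 28, 21 and 46 in knockout, mt-Co3 31, 53 and 45 against 37, 20 and 60, and mt-Atp6 44, 62 and 40 against 34, 27 and 78. mt-Atp8 held 18, 11 and 10 reads against 16, 7 and 26, and mt-Nd4l 8, 3 and 7 against 6, 5 and 8. Libraries differ about 2-fold in depth, and in CPM the genotypes overlapped in each of these 5 genes. Log2 folds were 0.33 (SE 0.25) for mt-Co2, -0.17 (SE 0.28) for mt-Co3, -0.11 (SE 0.21) for mt-Atp6 and 0.30 (SE 0.36) for mt-Atp8, and edgeR adjusted p were between 0.633 and 0.888 for the 5 tested genes of the low class. Without 1 library the log2 folds ran from 0.17 to 0.50 for mt-Co2, -0.39 to 0.00 for mt-Co3, -0.27 to -0.01 for mt-Atp6 and 0.11 to 0.57 for mt-Atp8. mt-Nd3 held 0, 2 and 19 reads in wildtype and 21, 25 and 10 in knockout. Wildtype replicates 1 and 2 were below the limit of 3 reads that a count of 0 allows, and the 95% interval ran from -0.81 to 3.81 on the log2 scale. Without 1 library the fold itself was 0.88 to 4.35 on that scale, 4.35 being the value without wildtype replicate 3.

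The mitochondrial ribosomal RNAs, which are transcribed from the same precursors as the messengers, varied more among knockout mice. Together mt-Rnr1 and mt-Rnr2 made up 0.496%, 0.599% and 0.547% of gene reads in wildtype and 0.554%, 0.657% and 0.780% in knockout. Knockout replicate 1 lay within the wildtype range and knockout replicate 3 was the highest mouse. Log2 folds were 0.25 (SE 0.11) for mt-Rnr1 and 0.31 (SE 0.11) for mt-Rnr2, with edgeR adjusted p of 0.47 and 0.403. Without knockout replicate 3 they were 0.11 and 0.18, and with offsets for GC content and length 0.11 and 0.17. Over the messenger reads of the 13 members the ribosomal reads were 0.195, 0.208 and 0.199 in wildtype and 0.185, 0.224 and 0.257 in knockout, which overlapped. Of 22 transfer RNAs 12 had enough reads to test, all with a positive fold and none passing, mt-Tl1 (leucine) having the smallest p with a log2 fold of 0.31 (SE 0.11). The median over the 12 was 0.26, and -0.01 with the same offsets. No ribosomal or transfer RNA with a DESeq2 adjusted p passed there.

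Among nuclear complex I members 9 of 27 had a positive and 18 a negative log2 fold, with a median of -0.02 and a range of -0.16 to 0.08. Ndufv1, the flavoprotein subunit that binds NADH, was at 134, 141 and 135.4 CPM in wildtype and 126, 122 and 117 CPM in knockout. Its genotypes did not overlap, with a log2 fold of -0.16 (SE 0.05, 95% interval -0.26 to -0.06) and an edgeR adjusted p of 0.328. Ndufs7, an iron-sulfur subunit near the quinone site, was at 50.5, 54.8 and 48.2 CPM against 50.1, 42.4 and 43.7 CPM, a log2 fold of -0.16 (SE 0.07). Ndufb6, an accessory subunit of the membrane arm, had a log2 fold of -0.12 (SE 0.06), and Ndufs1, the most abundant nuclear complex I transcript at 141 CPM on average, one of -0.003 (SE 0.04). Complex I held the 3 mitochondrial genes with the smallest p, all higher, and the nuclear gene with the smallest p, Ndufv1, which was lower. Neither direction passed with edgeR. This complex also supplies most of the 7 abundant mitochondrial members and 27 of the 45 nuclear ones. GC content was 35.6% to 37.6% for those 3 mitochondrial genes and 56.65% for Ndufv1. With offsets for GC content and length Ndufv1 had a log2 fold of -0.11, and mt-Nd1, mt-Nd2 and mt-Nd4 had 0.10, 0.10 and 0.04.

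The 4 members of complex II, which has no mitochondrial gene, had log2 folds of -0.07 to 0.01. Sdha, the flavoprotein that oxidises succinate and the most abundant nuclear member, was at 375, 403 and 390 CPM in wildtype and 385, 394 and 389 CPM in knockout, with a log2 fold of 0.01 (95% interval -0.08 to 0.10). Sdhd, a membrane anchor, was lower in every knockout mouse at 63.7, 66.6 and 66.8 CPM against 70.1, 70.8 and 67.9 CPM, a log2 fold of -0.07 (SE 0.04, edgeR adjusted p = 0.592). Sdhb, the iron-sulfur subunit, overlapped, with a log2 fold of -0.06 (SE 0.05).

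Complex III held both the lowest and the highest log2 fold of the nuclear members. Uqcrq, a small subunit beside cytochrome b, measured 37.3, 36.6 and 30.2 CPM in wildtype and 29.0, 27.2 and 32.0 CPM in knockout. Wildtype replicate 3 lay among the knockout mice, and the log2 fold was -0.23 (SE 0.09, 95% interval -0.44 to -0.02, edgeR adjusted p = 0.441). Uqcrc1, a core protein, had a log2 fold of -0.10 (SE 0.04), and the hinge protein gene Uqcrh one of 0.09 (SE 0.04). Both were apart between genotypes. Uqcrc2, the other core protein and the most abundant nuclear transcript of the complex, had a log2 fold of 0.06 (SE 0.05). The highest value, 0.10 (SE 0.07), belonged to Uqcrb.

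In complex IV no nuclear member had an unadjusted p under 0.05. Cox4i1, a regulatory subunit, was at 260, 264 and 236 CPM in wildtype and 250, 249 and 248 CPM in knockout, a log2 fold of -0.02 (95% interval -0.13 to 0.09). Cox6a1 had a log2 fold of -0.12 (SE 0.06), -0.18 without wildtype replicate 3, and Cox7a2 one of 0.09 (SE 0.07), both with overlapping genotypes. Ndufa4, named for complex I but known as a subunit of complex IV, was higher in every knockout mouse at 141, 138 and 136 CPM against 134.8, 133 and 126 CPM, a log2 fold of 0.08 (SE 0.04, edgeR adjusted p = 0.542). Cox7c and Ndufb4 had the lowest levels, at 4.40 to 7.15 CPM and 3.81 to 4.91 CPM.

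Over the 45 nuclear members the genotypes were apart for 4 higher genes (Ndufa4, Ndufv2, Uqcrh, Uqcrb) and 5 lower ones (Ndufb10, Ndufs3, Ndufv1, Sdhd, Uqcrc1), beside 8.29% and 8.34% of all genes tested. At an unadjusted p under 0.05 there were 0 higher and 2 lower, Ndufv1 and Uqcrq, beside 5.05% and 5.58%. DESeq2 called 0 of them, beside 1.28% of genes in either direction. These shares are near those of all genes. Of the nuclear members 23 shared at least 1 window of 50 bases with another gene, 8 of them over 20% of their windows (Ndufb4, Ndufb6, Ndufb9, Ndufs3, Ndufs5, Uqcrc2, Cox5b and Cox7c), so their counts may be split with those genes. For Ndufb4, Ndufs3, Ndufs5 and Cox7c these are mainly pseudogenes or their transcripts, and for Ndufb6, Ndufb9, Uqcrc2 and Cox5b genes annotated with coding or decay transcripts (Smim27, Gm49356, Pdzd9 and Gm11273).

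**Figure D4:**
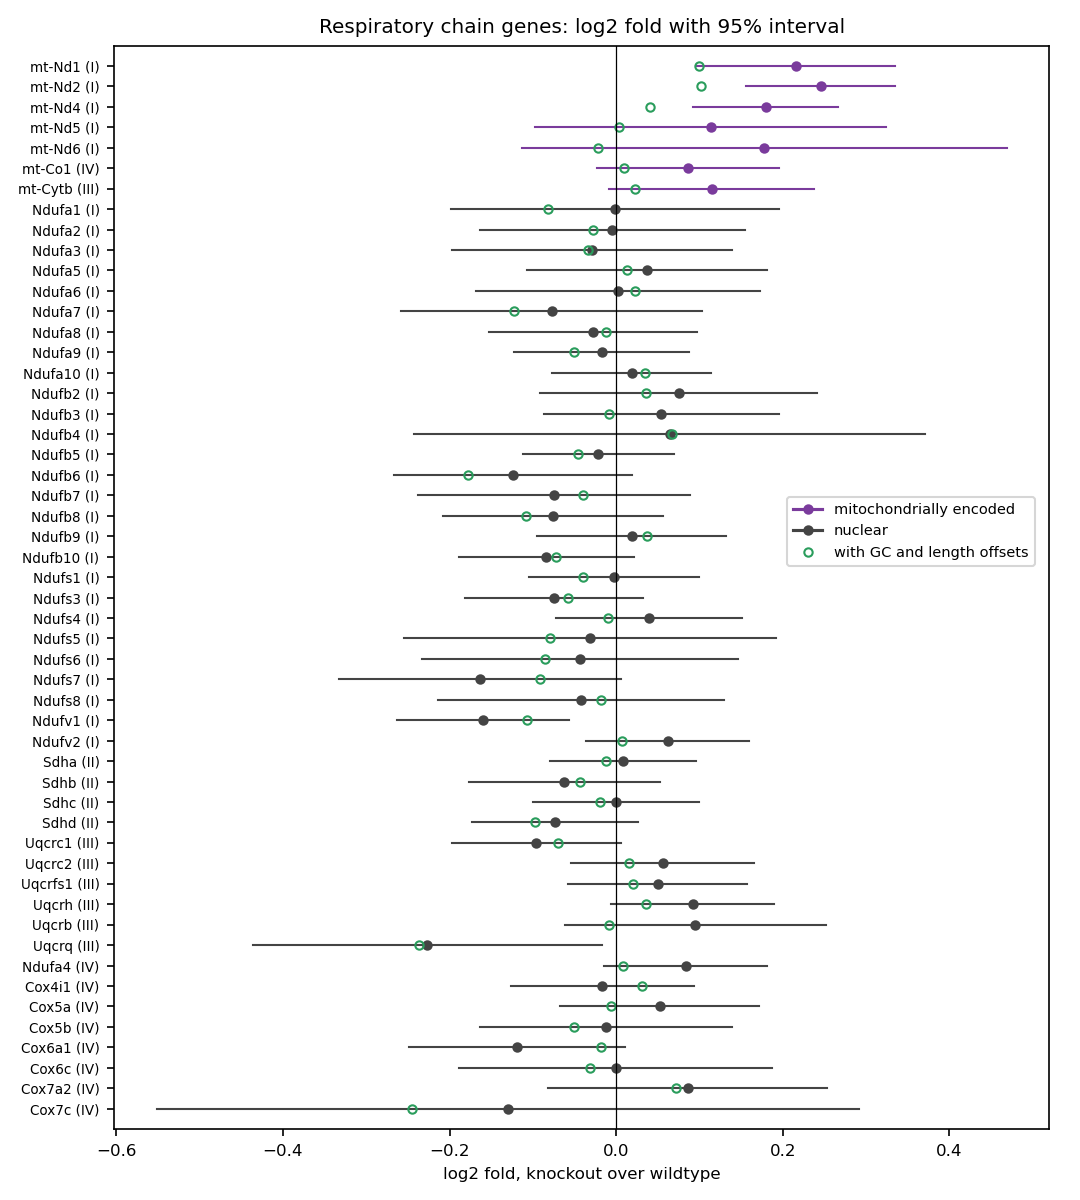
Log2 fold, knockout over wildtype, of the 7 abundant mitochondrially encoded members (purple) and the 45 nuclear members (grey) with 95% intervals from edgeR's quasi-likelihood test, complex in parentheses; open green circles give the log2 fold with offsets for GC content and length. The purple values lie between 0.09 and 0.25, the grey ones on both sides of 0, and the green circles of the purple genes between -0.02 and 0.10.

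Other nuclear genes of the pathway were also near 0. Of 16 tested nuclear subunits of ATP synthase, which complete the complex V that mt-Atp6 and mt-Atp8 could not show, 11 had a positive and 5 a negative log2 fold (median 0.03), and 0 passed with edgeR. Atp5j2 went from 56.9 ± 2.1 to 61.9 ± 0.74 CPM (SD, n = 3). Its log2 fold was 0.13 (SE 0.05), and Atp5f1 and Atp5h each had one of 0.08. Genotypes were apart in these 3 of the 16, beside 8.29% of all genes tested in the higher direction. The 3 were named for having the smallest p of the list. The 9 further complex I subunits had 2 positive and 7 negative folds (median -0.03), Ndufa13 at -0.11, Ndufb11 at -0.09 and Ndufa11 at -0.05. The 12 further genes of complexes III and IV and cytochrome c had 7 positive and 5 negative (median 0.02), with Uqcr11 at -0.12. The isoforms Cox4i2 and Cox6a2, both under 1 CPM on average in wildtype, were at 0.54 and -0.69. Without wildtype replicate 2 they were at 0.33 and -0.32, and Cox4i2 was at 0.83 without wildtype replicate 3. Ndufa13 and Uqcr11 were both at -0.05 without wildtype replicate 1 and at -0.06 and -0.07 without knockout replicate 2, and Uqcr11 at -0.21 without wildtype replicate 3. Of 33 assembly factors 19 were positive and 14 negative (median 0.02), with Sdhaf1 at 0.24, Bcs1l at 0.14 and Cox11 at -0.22. Leaving out knockout replicate 1 put Sdhaf1 at 0.11, leaving out wildtype replicate 3 at 0.15 and leaving out knockout replicate 3 at 0.37. None of these genes passed with edgeR or DESeq2.

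Genes that copy, transcribe and process the mitochondrial genome had log2 folds of both signs (19 of 29 positive, median 0.03, 0 called with edgeR or DESeq2). Polrmt, the mitochondrial RNA polymerase, was at 32.2 ± 2.0 against 28.6 ± 1.7 CPM (wildtype and knockout, SD, n = 3), which is -0.16 (SE 0.07) as a log2 fold. Fastk, whose mitochondrial isoform is known to stabilise the mt-Nd6 messenger, had a log2 fold of -0.19 (SE 0.05), and Top1mt, the mitochondrial topoisomerase, one of 0.18 (SE 0.07). The packaging and transcription factor gene Tfam, chosen after its values were seen, had 0.07 (95% interval -0.08 to 0.22). Among 12 regulators of mitochondrial biogenesis 6 were positive and 6 negative. The coactivator gene Ppargc1b was at 14.5 ± 1.0 and 11.0 ± 0.79 CPM (SD, n = 3), with a log2 fold of -0.38 (SE 0.09, edgeR adjusted p = 0.28), and its partner receptor gene Esrra had one of -0.23 (SE 0.07). Both were lower in every knockout mouse, beside 8.34% of all genes tested. Sirt1 had -0.06.

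Transcripts that stand for mitochondrial content, such as import receptors and enzymes of the citric acid cycle, had a median log2 fold of 0.03 (17 of 26 positive, 0 called with edgeR or DESeq2). Their sum was 4168 to 4291 CPM in wildtype and 4158 to 4258 CPM in knockout. Tomm40, the pore of the outer membrane, had a log2 fold of -0.16 (SE 0.05), Tomm70a one of 0.08 (SE 0.04) and the lipoamide dehydrogenase gene Dld one of 0.09 (SE 0.04). Citrate synthase (Cs), the usual marker of mitochondrial mass and chosen after its values were seen, had 0.01 (95% interval -0.08 to 0.10).

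Base composition ran alongside these differences. The 7 abundant mitochondrial members have a GC content of 34.1% to 39.9%, and the nuclear members a median of 49.1%. Genes with a transcript sequence were split into 5 classes of equal size by GC content. The median log2 fold was 0.06 in the lowest class, whose GC content centred on 41.4%, and -0.08 in the highest, at 57.9%. The 839 other tested genes within the GC range of those 7 members had a median of 0.08, and 77.7% of them were positive. When GC content and transcript length entered as offsets, the median of the 7 members went from 0.18 to 0.02. mt-Nd1 then had a log2 fold of 0.10, mt-Nd2 one of 0.10 and mt-Nd4 one of 0.04. mt-Nd6 turned to -0.02. The nuclear members had a median of -0.03 in that fit. GC content and length entered it together, and the mitochondrial genes were among those that set the offsets. The change in the median of the 7 members was larger than the median of 0.08 in the 839 genes of their GC range. The parts of GC content and of length in this change were not tested. Only 26 tested genes have a lower GC content than mt-Nd6, so the offset of mt-Nd6 rests on the edge of the range. Those of the other abundant members lie further inside it.

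**Figure D5:**
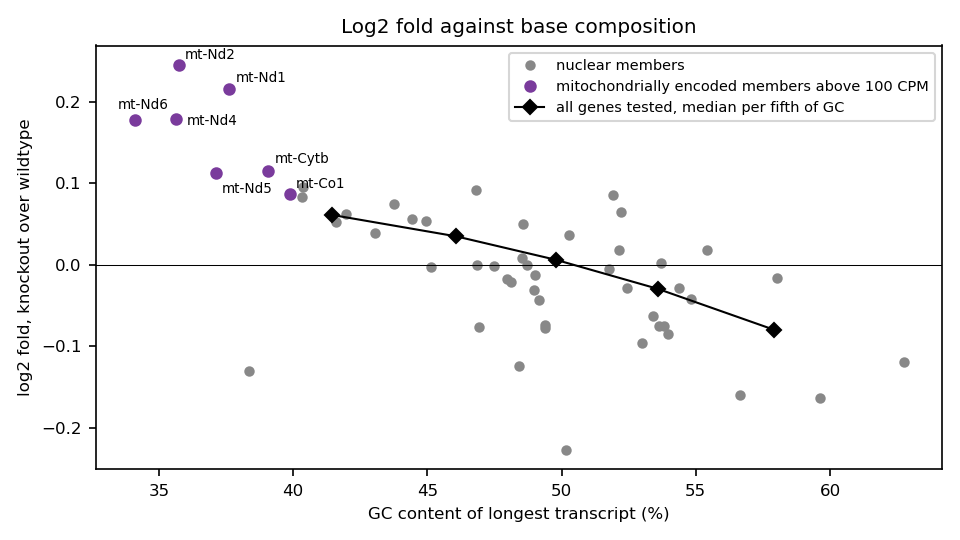
Log2 fold against GC content of the longest transcript (percent) for the 7 abundant mitochondrially encoded members (purple), the nuclear members (grey) and the median over all genes tested in each of 5 GC classes (black). The black line runs from 0.06 at a GC content of 41.4% to -0.08 at 57.9%, and the purple genes lie to its left at 34.1% to 39.9%.

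Sums of some marker lists were apart between genotypes in the same libraries, and those of the rest overlapped. Apart were the sums for nucleus-retained RNA, neurons and meninges, higher in knockout, and for choroid plexus, lower in knockout. Transcripts retained in the nucleus (Malat1, Neat1, Meg3, Snhg11 and Xist) had 4 of 5 positive folds and summed to 10677 to 11320 CPM in wildtype and 11399 to 11680 CPM in knockout, without overlap. Neuron markers had 7 of 10 positive folds and summed to 8516 to 9266 and 9316 to 9417 CPM. Astrocyte markers had 10 of 10 positive (5954 to 6633 against 6433 to 6960 CPM) and oligodendrocyte markers 2 of 10 (3469 to 4316 against 3332 to 3573 CPM). Meningeal markers had 10 of 10 positive (275 to 320 against 385 to 475 CPM). For microglia 3 of 10 were positive (386 to 410 against 369 to 388 CPM), for endothelium 4 of 10 (261 to 292 against 262 to 277 CPM), for blood 1 of 5 (15.03 to 27.3 against 13.1 to 17.2 CPM), for choroid plexus 3 of 8 tested (168 to 196 against 159 to 167 CPM) and for cytosolic ribosomal proteins 5 of 10 (701 to 760 against 738 to 755 CPM). No marker in these lists was at 0 in every library. Their part in the difference of the mitochondrial members was not tested.

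The starts of the nuclear genes were searched for cores of motifs known from respiratory chain promoters. RefSeq promoters on GRCm38.p6, from 250 bases before to 50 after the gene start, matched 36 of the 45 members. The NRF1 core GCGCATG, searched on both strands like the others, occurred in 8 of 36 (22.2%), beside 4.41% of 27025 genes with a promoter and 5.40% of the protein-coding ones. The ETS core CCGGAAG also occurred in 8 (22.2%, beside 9.93% and 12.9%), and the YY1 core AAGATGG in 7 (19.4%, beside 7.28% and 7.18%). Cox6a1, Ndufb6 and Sdhb held the NRF1 and the ETS core. The last letters of the ETS core are the first of the YY1 core, so that both can overlap, but no member held both. A match is a description and not a site of binding. The 6 complex I windows with the YY1 core (capitals) are shown because the core lies 22 to 38 bases after the start in each, on the strand of the gene.
Ndufa3 (chr7:3617385-3617414, plus strand): cgccaagaacAAGATGGccgggagtaagta
Ndufa9 (chr6:126849096-126849125, minus strand): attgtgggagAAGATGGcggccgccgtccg
Ndufb8 (chr19:44555393-44555422, minus strand): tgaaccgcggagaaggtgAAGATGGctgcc
Ndufs4 (chr13:114388045-114388074, minus strand): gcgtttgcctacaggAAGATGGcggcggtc
Ndufs6 (chr13:73328433-73328462, minus strand): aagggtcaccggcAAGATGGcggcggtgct
Ndufs7 (chr10:80249463-80249492, plus strand): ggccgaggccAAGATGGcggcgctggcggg

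The share of all genes with the core at this distance and on the strand of the gene was not determined. Log2 folds were -0.03 for Ndufa3, -0.02 for Ndufa9, -0.08 for Ndufb8, 0.04 for Ndufs4, -0.04 for Ndufs6 and -0.16 for Ndufs7. None of these genes passed with edgeR.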

How the data were processed

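The authors deposited raw read counts per Ensembl gene, 1 table per mouse. The build was mm9, per the submitters' processing notes, which also name STAR 2.3.0e, HTSeq, FastQC 0.10.1, SAMtools and DESeq2 without their roles. Annotation and strandedness of the counting were not given in the sources used here. The 5 closing rows that name no gene held 38.0% to 40.3% of each table and were left out. Symbols came from GENCODE M21 (32897 identifiers matched), whose transcripts gave GC content and copies on GRCm38.

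The main test was edgeR 4.0.16 (R 4.3.3), quasi-likelihood, genotype alone, filterByExpr, TMM factors, Benjamini-Hochberg adjustment at 0.05. TMM factors were 0.996 to 1.005, and CPM printed are of the gene total. SE is the log2 fold divided by the root of F. Alternatives used DESeq2 1.42.0, limma 3.58.1 and the settings in the closing section. Scripts were tested on simulated data.

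Members and lists were chosen with earlier results of these data known. Named were all mitochondrial members, per complex the 3 nuclear members of smallest p and the most abundant, and up to 3 genes of smallest p per pathway list (8 pathway and 10 marker lists, 254 of 261 entries matched). The split at 100 CPM, the copies and the motifs were chosen after seeing the data.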

Additional observations from a re-analysis of the deposited data

Results flagged for a closer look

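Reads placed at several sites form a closing row of each table that enters no gene test. Their share of the table was 20.2%, 20.95% and 20.9% in wildtype replicates 1, 2 and 3 and 21.2%, 22.6% and 21.6% in knockout replicates 1, 2 and 3, with means of 20.7% ± 0.41 and 21.8% ± 0.71 (SD, n = 3). All knockout values lay above all wildtype values. The row was singled out because it lies above the control level in data outside the main measurement. Which genes its reads come from is not recorded, and its relation to the mitochondrial copies was not tested.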

How the results depend on the processing

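Counts of genes called depended on tool and filter: 62 without a filter beyond 1 read, 165 with DESeq2, 15 with edgeR's robust fit, and 0 to 17 without 1 library (17 without knockout replicate 3, 16 without wildtype replicate 2, 2 without wildtype replicate 1 or knockout replicate 1). Called mitochondrial members were 1 without a filter (mt-Nd2) and 3 with DESeq2, and called nuclear members 0 in every setting run. The mitochondrial median log2 fold of 0.18 was 0.020 with GC content and length offsets (0.022 over the abundant members, added after seeing the data) and 0.10 to 0.22 without 1 library. The cause was not tested. The knockout to wildtype quotient of the ratio to nuclear reads was 1.23 for ribosomal RNAs in place of messengers (added after seeing the data). Among named genes 12 values turned sign, none of a gene that passed. With the offsets these were mt-Nd6 (-0.0217), Sdha (-0.0121), Cox4i1 (0.0309) and Atp5f1 (-0.0298), and with depth set as covariate Cox4i1 (0.0079). Without 1 library the values ran from -0.3904 to 0.0007 for mt-Co3, -0.0263 to 0.0254 for Ndufs1, -0.0159 to 0.0327 for Sdha and -0.0672 to 0.0137 for Cox4i1. The replicate numbers pair nothing, since each mouse is from a different litter. By the numbers of the sample titles, used throughout, same-numbered deviations correlated at -0.11, -0.02 and -0.17. For no library was the correlation highest with its own title number. The deposited sample names number the knockout mice differently. By those names wildtype replicate 2 goes with knockout replicate 1 (0.013) and wildtype replicate 3 with knockout replicate 2 (0.098, the highest for both). With the replicate block 0 genes and 0 members were called and the mitochondrial median was 0.18. Few reads limit the precision for mt-Nd3, mt-Nd4l, mt-Co2, mt-Co3, mt-Atp6 and mt-Atp8.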

Other observations

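mt-Nd3 and its neighbour on the mitochondrial genome, the arginine transfer RNA gene mt-Tr, varied together among mice across genotypes. mt-Nd3 held 0 and 2 reads in wildtype replicates 1 and 2 and 10 in knockout replicate 3, but 19 in wildtype replicate 3 and 21 and 25 in knockout replicates 1 and 2. mt-Tr held 2, 1 and 3 reads in the first 3 of these libraries and 24, 25 and 36 in the others. The libraries with few reads of both genes are the 3 with the most reads in all, so the counts ran opposite to depth. None of the other low genes (mt-Co2, mt-Co3, mt-Atp6, mt-Atp8, mt-Nd4l) did so in reads. mt-Nd3 is also the gene whose nuclear copy on chromosome 1 differs from it at a single base, T3C. The pattern was chosen after its values were seen and was not tested.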
